A study of Mus musculus with 70 samples.

Results

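T cells of mice that had become socially avoidant after chronic social defeat stress (CSDS, repeated defeat by a larger aggressive CD-1 mouse) were compared with T cells of unstressed mice. The comparison used 12 of the 70 RNA sequencing libraries of the series, those that the sample labels give as T cells of susceptible (SUS) or control (CON) mice, with 6 libraries in each group. The resilient (RES) libraries were left out of the fit because 1 of the 6 carried B cell markers. The other libraries were from Ly6C high monocytes, Ly6C low monocytes and B cells.

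The mice were C57BL/6J, aged 7 to 8 weeks, with no transgene or drug. SUS mice had 10 days of defeat and a social interaction (SI) ratio below 1 in a test 24 h after the last defeat, while CON mice were housed in pairs across a partition and not defeated. T cells were sorted from trunk blood after red blood cell lysis on a panel that included CD90.2, the protein of Thy1. That protein is on nearly all mouse T cells but also on some innate lymphocytes, and the sort did not separate CD4 from CD8 T cells or naive from activated ones. The SUS group was chosen by behaviour after the stress, so stress and the behavioural outcome cannot be told apart in SUS vs. CON mice. The labels name no mouse and give brain as the source, while the methods of the study describe blood, and it is not stated that each library is a separate mouse. The p-values therefore measure the spread between libraries.

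As background, most blood T cells of a young mouse are naive cells in a resting state that recirculate between blood and lymph nodes. On activation they express the high affinity interleukin-2 receptor chain (Il2ra), enter the cell cycle and acquire effector functions, and a minority, the regulatory T cells, carry Foxp3 and Il2ra and restrain other T cells. Cytokines signal in T cells through JAK kinases and STAT factors, which induce feedback inhibitors of the SOCS family, and type I interferon induces a broad antiviral set of genes. Stress hormones reach T cells through the glucocorticoid receptor and through adrenergic signalling, which raises cyclic AMP.

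The labelled cell type was checked first. The T cell markers Cd3e, Cd3g and Lck were at 385 to 517, 513 to 628 and 409 to 572 CPM (counts scaled to TMM-normalized library sizes) in CON libraries and at 393 to 553, 397 to 694 and 392 to 657 CPM in SUS libraries. The groups overlapped for all 3 genes. The log2 differences, SUS minus CON, were -0.02 for Cd3e, -0.07 for Cd3g and -0.01 for Lck (SE 0.10, 0.12 and 0.12), and none passed the test. Outside T cells, Cd3e did not exceed 1.76 CPM in any library of the SUS and CON monocytes and B cells, when all were normalized together. Lck was less restricted, at 17.1 to 66.7 CPM in Ly6C low monocytes and 9.21 to 26.9 CPM in B cells. Totals ran from 27257572 to 43437501 counts in CON and from 27839946 to 46923129 in SUS libraries, with no detectable difference (exact permutation test, two-sided, p = 0.742). Mitochondrial transcripts took 9.53 to 13.9% and 9.73 to 12.2% of counts (p = 0.212), and the repeat-rich genes Gm23935 and Gm26917 took 4.75 to 30.3% and 5.41 to 28.0% (p = 0.844, both exact permutation tests).

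Markers of cells other than T cells differed by cell type. Of 12 listed neutrophil markers, Elane was at 0 in all 12 libraries and Ly6g in 11, and 3 passed the filter on low counts. Among those that did not pass, Retnlg, S100a9 and Mmp8 still reached 230, 131 and 124 counts in a library. The sum of the 3 that passed was highest in SUS library 1, CON library 2 and SUS library 2 (12.8, 10.4 and 8.25 CPM). It was at most 3.87 CPM in the others. Of the 3, the cytokine receptor gene Csf3r had the highest levels (up to 9.5 CPM in CON and 12.7 CPM in SUS libraries). All 3 had a positive difference, with a median of 0.96, and none reached an unadjusted p under 0.05. Of 9 tested B cell markers, 8 monocyte markers, 11 natural killer (NK) cell markers and 7 platelet markers, none reached an unadjusted p under 0.05. All 7 platelet markers had a positive difference, with a median of 0.43 and a summed level of 16.8 to 28.2 CPM in CON and 18.4 to 41.7 CPM in SUS libraries. The summed level of the tested monocyte markers was highest in SUS libraries 1 and 2, at 610 and 547 CPM. It was 145 to 371 CPM in CON libraries and 133 to 180 CPM in the other SUS libraries. CON library 2 was the highest CON library, so the libraries with the highest neutrophil marker sums also had the highest monocyte marker sums. Red cell markers were higher in SUS libraries. All 8 listed markers had a positive difference, 7 of them at an unadjusted p under 0.05 and none past the adjusted p, with a median log2 difference of 0.91. Their summed level was 921 to 2929 CPM in CON and 1682 to 4740 CPM in SUS libraries. SUS libraries 3 and 5 (4740 and 3862 CPM) lay above all CON libraries. The value of 2929 CPM was that of CON library 2, and every SUS library lay above all the other CON libraries (at most 1653 CPM). These values are set beside the results that they could touch.

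The main result is a small set of genes, all higher in SUS mice. Of 16921 genes tested with edgeR's quasi-likelihood test, 5 had both an adjusted p under 0.05 and a log2 fold change beyond 1 in size, which is 0.0295% of the genes tested. They were Socs3, Il2ra, Ly6a, Rrm2 and Neb. A further gene, E2f2, passed the adjusted p with a smaller fold change, which makes 0.0355%. No gene was called lower. Every SUS library exceeded every CON library for each of these 6 genes, which was so for 0.225% of all genes tested, and the reverse was so for 0.148%. The median log2 difference of all genes tested was 0.01. In bulk RNA, a change in the share of a cell type and a change in its RNA per cell cannot be told apart.

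**Figure D1:**
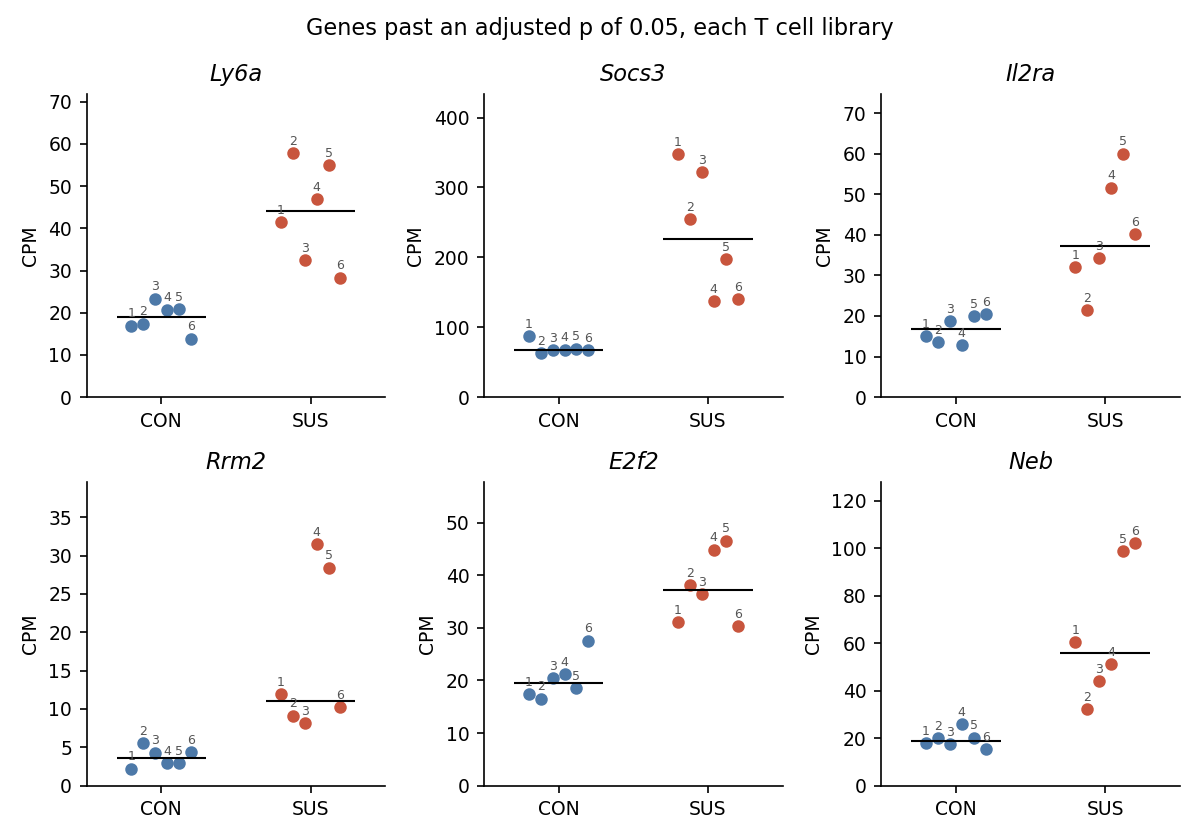
TMM-normalized CPM (y axis, linear, from 0) of the 6 genes past an adjusted p of 0.05 in the 6 CON and 6 SUS T cell libraries (points, with library numbers), with group medians as lines. Every SUS library lies above every CON library in all 6 panels. SUS libraries 4 and 5 are highest for Rrm2 (31.5 and 28.4 CPM), while SUS libraries 1 and 3 are highest for Socs3 (348 and 322 CPM).

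Socs3 (ENSMUSG00000053113, chr11:117966079-117970047, minus strand, GRCm38) encodes an inhibitor that STAT3 induces and that blocks cytokine receptor signalling. It was at 62.6 CPM at the lowest, 67.3 at the median and 86.9 at the highest in CON libraries, and at 137, 226 and 348 CPM in SUS libraries. The groups were apart, and the 5 CON libraries other than library 1 lay within 62.6 to 69.2 CPM. Socs3 rose by a log2 fold change of 1.74 (SE 0.22, n = 6 per group, adjusted p = 0.0161). SUS libraries 1, 3 and 2 were highest, at 348, 322 and 255 CPM, and these were not the SUS libraries with the most Il2ra or Rrm2. SUS libraries 1 and 2 also had the highest monocyte marker sums. Without them and without CON libraries 1 and 2, the log2 difference of Socs3 was 1.56 and no longer passed the test (adjusted p = 0.142 by the edgeR quasi-likelihood test, 4 libraries per group). This loss was not particular to Socs3, since no gene passed the adjusted p in that smaller fit. Among the 6 genes its adjusted p ran from 0.0722 for Il2ra to 0.297 for Ly6a and E2f2.

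Il2ra (ENSMUSG00000026770, chr2:11642807-11693193, plus strand) encodes the alpha chain of the interleukin-2 receptor, CD25, which is high on regulatory T cells and on newly activated T cells. Its level was 12.9, 16.8 and 20.5 CPM in CON libraries (lowest, median, highest) and 21.5, 37.2 and 60.0 CPM in SUS libraries. SUS library 2 was only just above the highest CON library, and SUS libraries 4 and 5 were at 51.6 and 60.0 CPM. The log2 fold change was 1.25 (SE 0.20, adjusted p = 0.0161).

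Ly6a (ENSMUSG00000075602, chr15:74994877-74998031, minus strand) encodes the surface protein Sca-1, which interferons and activation induce on T cells. It was at 13.8, 19.1 and 23.4 CPM in CON libraries and at 28.3, 44.2 and 57.8 CPM in SUS libraries. It rose by a log2 fold change of 1.21 (SE 0.18) with the smallest adjusted p of all genes, 0.011. Among the 6 genes it depended least on any single library, since its adjusted p stayed under 0.05 when any library other than CON library 1 was left out (0.0512 without that library).

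Rrm2 (ENSMUSG00000020649, chr12:24708241-24714146, plus strand) encodes the subunit of ribonucleotide reductase that is made in S phase and limits the supply of DNA precursors. Its level was low, at 2.23, 3.64 and 5.53 CPM in CON libraries (80 to 281 counts) and at 8.15, 11.1 and 31.5 CPM in SUS libraries (258 to 1190 counts). SUS libraries 4 and 5 were far above the other 4, which lay at 8.15 to 11.9 CPM. The log2 fold change was 2.16 (SE 0.35, adjusted p = 0.0161). E2f2 (ENSMUSG00000018983, chr4:136172394-136196057, plus strand), a transcription factor of the E2F family that regulates cell cycle entry and is also made by maturing red cells, was at 16.6, 19.5 and 27.5 CPM in CON and 30.3, 37.2 and 46.6 CPM in SUS libraries. Its log2 fold change was 0.90 (SE 0.15, adjusted p = 0.0192).

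Neb (ENSMUSG00000026950, chr2:52136647-52378474, minus strand) encodes nebulin, a giant protein of the muscle thin filament. Its level was 15.3, 18.9 and 25.8 CPM in CON libraries and 32.3, 55.8 and 102 CPM in SUS libraries, with SUS libraries 5 and 6 near 100 CPM. It rose by a log2 fold change of 1.74 (SE 0.26, adjusted p = 0.0192). A pseudogene model, an antisense model and a miRNA gene lie within the Neb locus, each with a mean count of at most 5.75.

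The 5 calls were sensitive to single libraries. With each of the 12 libraries left out in turn, 0 to 11 genes were called. No gene was called without CON library 1 (743 genes at an unadjusted p under 0.05), 1 was called without CON library 3 or CON library 4, 2 without CON library 2 or SUS library 4, 3 without CON library 5 or SUS library 5, and 11 without SUS library 3 or SUS library 6. The log2 fold changes moved much less, from 1.58 to 1.85 for Socs3, 1.10 to 1.38 for Il2ra, 1.11 to 1.31 for Ly6a, 1.87 to 2.30 for Rrm2, 1.56 to 1.87 for Neb and 0.84 to 1.01 for E2f2. With the mean log2 level of the red cell markers as a covariate, no gene was called (577 genes at an unadjusted p under 0.05), while the log2 differences were 1.63 for Socs3, 1.14 for Il2ra, 1.18 for Ly6a, 1.87 for Rrm2, 1.83 for Neb and 0.77 for E2f2. Without SUS libraries 3 and 5, which had the most red cell RNA, 5 genes were called again, and 4 of them were Socs3, Ly6a, Rrm2 and Neb. The adjusted p was then 0.0977 for Il2ra and 0.127 for E2f2, which no longer passed.

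**Figure D2:**
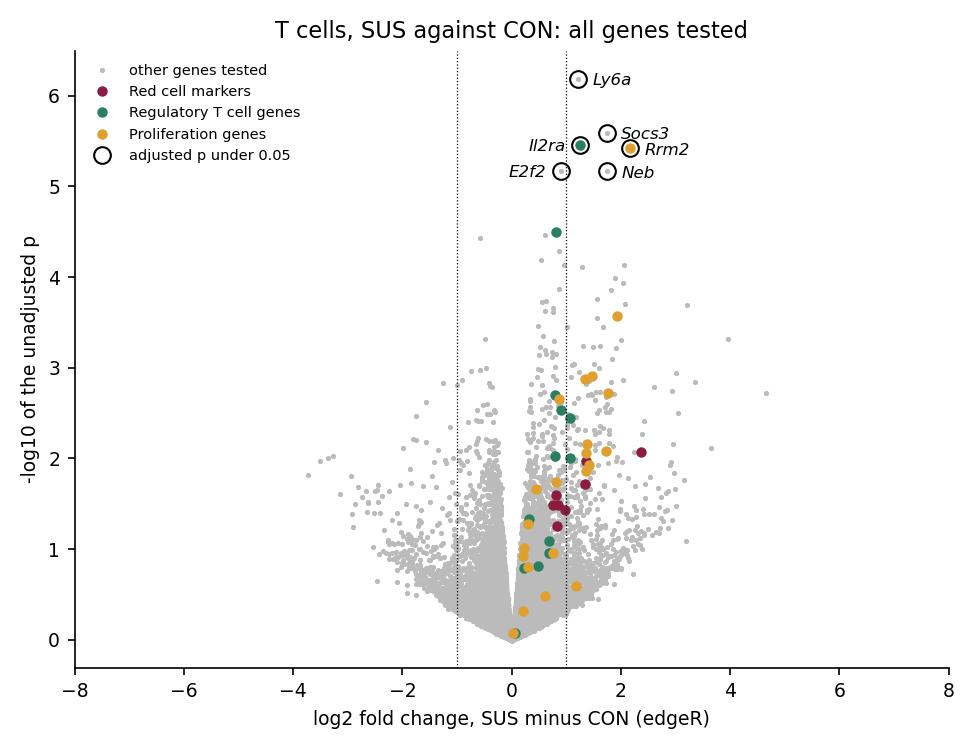
Log2 fold change, SUS minus CON (x axis), and -log10 of the unadjusted p (y axis) of the 16921 genes tested in T cells, with red cell, regulatory T cell and proliferation genes in colour and genes past the adjusted p circled. The 6 circled genes are all on the side of higher levels in SUS mice, and all 22 proliferation, 13 regulatory T cell and 8 red cell genes have positive differences.

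Beyond the 6 genes, 821 genes (4.85%) had an unadjusted p under 0.05, of which 509 (3.01% of genes tested) were higher and 312 (1.84%) lower in SUS mice. By sign alone, 51.5% of the genes were higher. Members of the lists below are read against these shares. No value here that is given with an unadjusted p passed the adjusted p, other than those of the 6 genes.

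The genes ranked next for higher levels were immune regulators. Icos, an activation-induced costimulatory receptor that regulatory and helper T cells carry, was at 15.1 to 19.4 CPM in CON and 21.9 to 36.7 CPM in SUS libraries (log2 difference 0.81, SE 0.15, adjusted p = 0.0691). Jak3, the kinase of the common gamma chain cytokine receptors, was at 72.7 to 95.4 and 107 to 156 CPM (0.54, adjusted p = 0.0928). The groups did not overlap for either gene. Sbno2, a transcriptional coregulator induced by interleukin-10 and STAT3, was at 77.0 to 85.0 CPM in CON and 85.6 to 157 CPM in SUS libraries (0.61, adjusted p = 0.0691), and Lgals1, galectin-1, was at 31.9 to 67.8 and 72.1 to 119 CPM (0.86, adjusted p = 0.0866). For both, every SUS library was above every CON library.

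The genes ranked for lower levels had smaller differences. Tdrp had the smallest p among them, with 129, 165 and 184 CPM in CON libraries and 85.6, 108 and 131 CPM in SUS libraries (log2 difference -0.58, SE 0.11, adjusted p = 0.0691), and 5 of the 6 SUS libraries lay below all CON libraries. The others were Ttc28 (-0.49), Zscan2 (-0.47), Gpd2 (-0.57), Lman2l (-0.75), Cd101 (-0.91), Pde3b (-0.42), Pik3c2b (-1.0), St8sia1 (-0.40) and Ift80 (-0.36), with adjusted p from 0.239 to 0.345. Cd101, an inhibitory surface receptor, was at 13.4 to 22.2 CPM in CON and 5.01 to 16.4 CPM in SUS libraries. Pik3c2b, a class II phosphoinositide 3-kinase, was at 5.13 to 7.40 and 2.49 to 4.01 CPM, and there the groups did not overlap. Reads of Lman2l, St8sia1 and Ift80 could be shared with overlapping annotated genes, whose highest mean counts were 252, 169 and 610.

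The core T cell programme gave no such pattern. Of 19 genes of the T cell receptor complex and its proximal signalling, none reached an unadjusted p under 0.05 in either direction, and their median log2 difference was -0.02. Of 6 CD4 and CD8 coreceptor and lineage genes, 1 was lower at an unadjusted p under 0.05. This was Cd40lg, the CD40 ligand of helper T cells (-0.41, SE 0.16, unadjusted p = 0.0175). Of 12 naive and recirculation genes, 10 had a negative and 2 a positive difference, with a median of -0.06. Only Id3, an inhibitor of E protein factors, was lower at an unadjusted p under 0.05 (7.99 to 13.1 CPM in CON and 1.6 to 9.11 CPM in SUS libraries, -0.95, SE 0.33, unadjusted p = 0.00827), and the lymph node homing receptor Ccr7 was at 332 to 403 and 270 to 440 CPM.

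**Figure D3:**
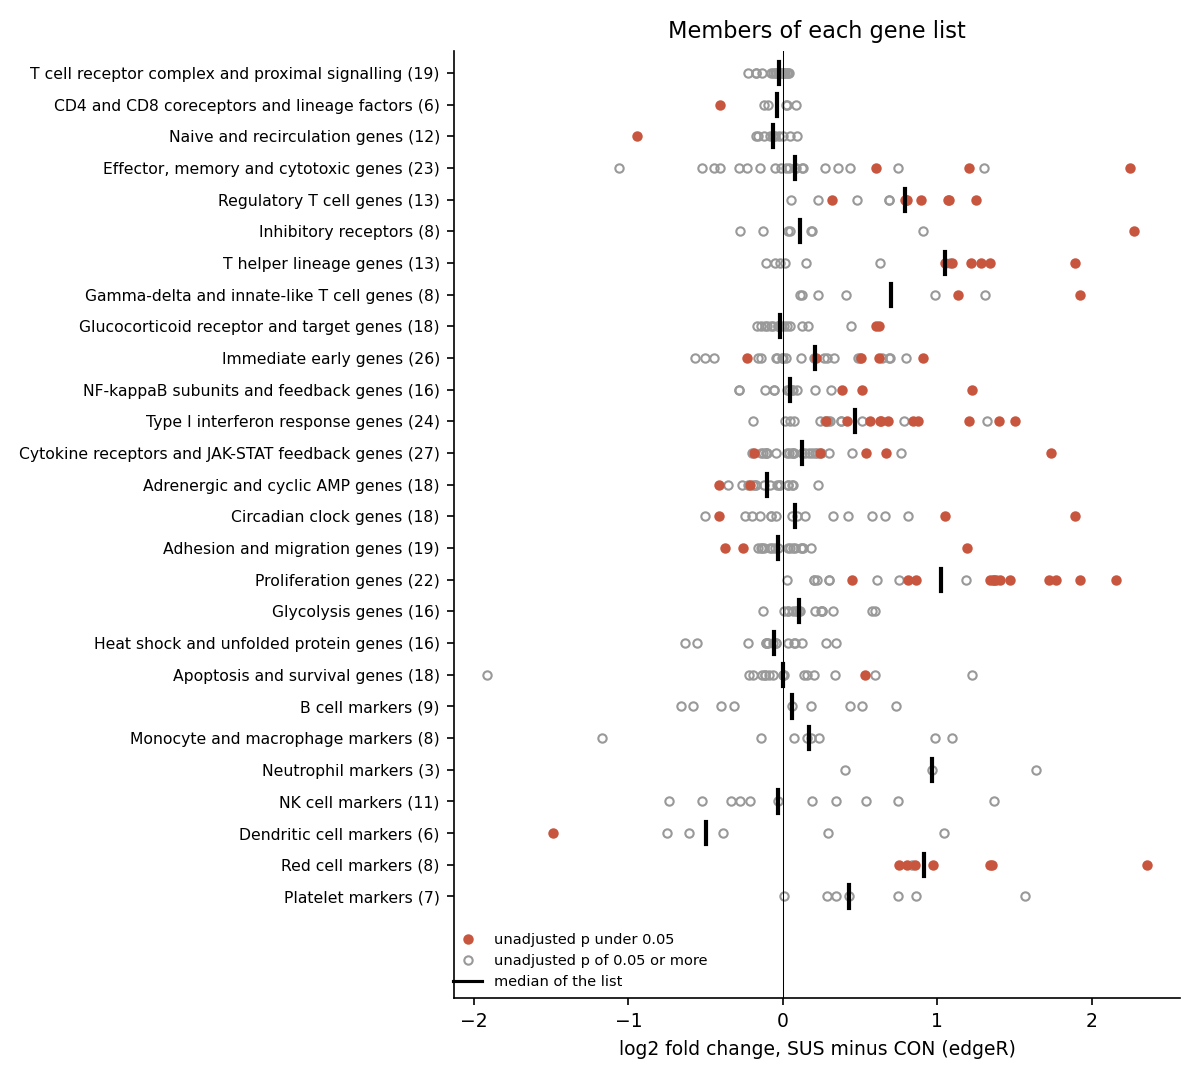
Log2 fold change, SUS minus CON (x axis), of every tested member of the 27 gene lists (rows, number tested in parentheses), with filled points for an unadjusted p under 0.05 and bars for list medians. The regulatory T cell, T helper, proliferation and red cell lists have medians between 0.79 and 1.05, while the T cell receptor list sits at -0.02. The neutrophil list, with 3 tested members, has a median of 0.96. A few genes stand in 2 lists.

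Regulatory T cell genes were higher as a group. All 13 tested members had a positive difference, 8 at an unadjusted p under 0.05 and 1, Il2ra, past both thresholds, and the list's median log2 difference was 0.79. Foxp3, the factor that defines these cells, was at 18.6, 25.9 and 42.2 CPM in CON libraries and 30.0, 41.6 and 74.1 CPM in SUS libraries (log2 difference 0.80, SE 0.27, unadjusted p = 0.00932). The groups overlapped, and SUS libraries 4, 5 and 6 exceeded every CON library. Some reads of Foxp3 (mean count 1384) could be shared with overlapping annotated genes, of which the highest had a mean count of 289. Ctla4, an inhibitory receptor, differed by 1.07 (SE 0.38, unadjusted p = 0.00986) and Tigit, another, by 1.08 (SE 0.33, unadjusted p = 0.00357). The TNF receptors Tnfrsf4 (OX40) and Tnfrsf18 (GITR) differed by 0.90 and 0.32, and Gpr83, an orphan receptor of regulatory T cells, by 0.79 (SE 0.23, 8.22 to 17.6 CPM in SUS against 6.00 to 10.5 CPM in CON libraries). Ikzf2 (Helios) differed by 0.69 with a wide SE of 0.40 (unadjusted p = 0.111). The summed level of the 13 genes was 166 to 251 CPM in CON and 247 to 426 CPM in SUS libraries, so 5 of 6 SUS libraries exceeded every CON library. With the red cell covariate the median was 0.77, and 5 members were higher at an unadjusted p under 0.05.

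Proliferation genes showed the same sign throughout. All 22 tested members were higher in SUS mice, 13 at an unadjusted p under 0.05, and the median log2 difference was 1.02. Rrm2 alone passed the adjusted p. Mki67, which encodes the Ki-67 antigen of cycling cells, was at 21.6, 27.3 and 46.9 CPM in CON libraries and at 42.5, 85.2 and 237 CPM in SUS libraries (1.77, SE 0.43, unadjusted p = 0.00191). SUS libraries 5 and 4 were highest, at 237 and 125 CPM, and 2 SUS libraries were within the CON range. Top2a, the S and G2 phase topoisomerase, differed by 1.47 (SE 0.36), the spindle factor Tpx2 by 1.93 (SE 0.44) and the cyclin Ccna2 by 1.38 (SE 0.46). Reads of Ccna2 (mean count 239) could be shared with Exosc9, which overlaps it on the opposite strand and had a mean count of 842. Mcm5, a replication helicase subunit that is not restricted to dividing cells, differed by 0.45 (SE 0.18). The summed level was 367 to 494 CPM in CON and 487 to 961 CPM in SUS libraries, and SUS libraries 4 and 5 (889 and 961 CPM) lay far above the other 4 SUS libraries (487 to 545 CPM).

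Erythroid precursors also divide, so the red cell values are set beside this list. Whether such cells contributed to it was not tested. SUS library 3 had the highest red cell sum (4740 CPM) and the lowest proliferation sum of the SUS libraries (487 CPM). SUS library 4 had a red cell sum of 2462 CPM, which only CON library 2 exceeded among CON libraries, and a proliferation sum of 889 CPM. SUS library 5 was high for both, with the second highest red cell sum (3862 CPM) and the highest proliferation sum (961 CPM). With the red cell covariate the median of the 22 proliferation genes was 0.84, with 6 higher at an unadjusted p under 0.05, against 2.11% of all genes in that fit. Mki67 then differed by 1.44 (unadjusted p = 0.0227) and Rrm2 by 1.87 (unadjusted p = 0.000266).

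**Figure D4:**
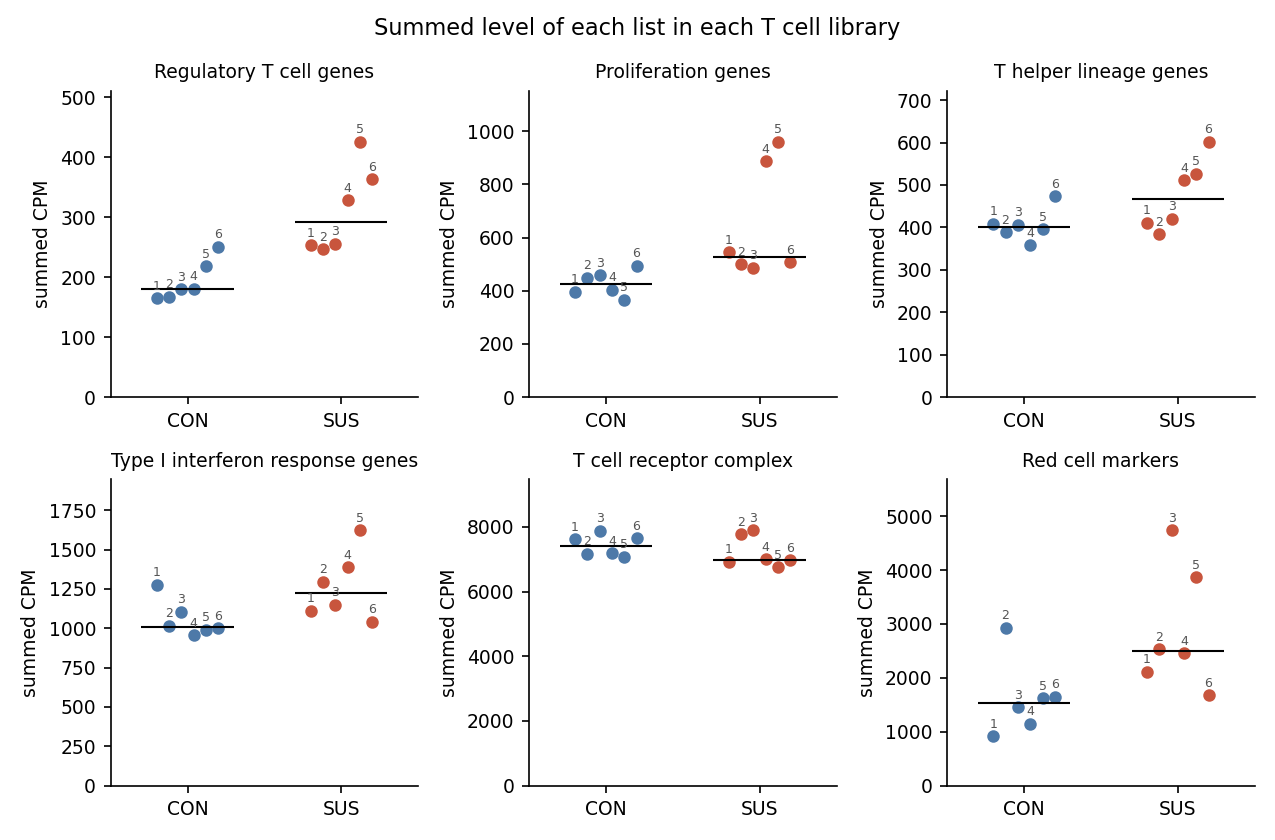
Summed TMM-normalized CPM (y axis, linear, from 0) of the tested members of 6 gene lists in the 6 CON and 6 SUS T cell libraries (points, with library numbers), with group medians as lines. For the regulatory T cell and the proliferation list, 5 SUS libraries exceed every CON library, against 3 for the T helper and the interferon list, 2 for red cell markers and 1 for the T cell receptor list.

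Among T helper lineage genes, 10 of 13 were higher, 6 at an unadjusted p under 0.05, with a median of 1.05. Of these, the nuclear receptor gene Rora differed by 1.05 (SE 0.32), the chemokine receptors Ccr4 and Ccr6 by 1.22 and 1.29 (SE 0.34 and 0.47), Maf by 1.35 (SE 0.51) and Ahr, the aryl hydrocarbon receptor, by 1.09 (SE 0.39). Several of these genes also mark gamma-delta and innate-like T cells, and of 8 tested genes of that list all were higher, 2 at an unadjusted p under 0.05. Those were Cd163l1 (1.93, SE 0.61), a scavenger receptor of gamma-delta T cells, and Tcrg-C1 (1.13, SE 0.47), a gamma chain constant gene that near-identical copies make uncertain. SUS library 6 had the highest levels of Cd163l1 (99.0 CPM) and Tcrg-C1 (27.1 CPM), and a summed level of the list of 222 CPM against at most 80.7 CPM in any other library. Without it the log2 differences were 1.17 for Cd163l1 and 0.55 for Tcrg-C1.

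Effector, memory and cytotoxic genes had no common direction. Of 23 tested, 3 were higher and none lower at an unadjusted p under 0.05, with a median of 0.08. Gzmb, the granzyme of cytotoxic cells, was at 3.20, 5.46 and 26.9 CPM in CON libraries and 10.5, 17.1 and 107 CPM in SUS libraries (2.25, SE 0.82, unadjusted p = 0.0203), and Klrg1, a receptor of differentiated effector cells, differed by 1.21 (SE 0.53). For both, the highest CON library was within the SUS range, and with single libraries left out the log2 difference ran from 1.69 to 3.00 for Gzmb and from 0.88 to 1.89 for Klrg1. Of 8 inhibitory receptor genes only Havcr2 (TIM-3) was higher at an unadjusted p under 0.05, at 0 to 3.25 CPM in CON and 0.26 to 8.4 CPM in SUS libraries, which is too low for a firm statement.

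Type I interferon response genes were higher as a group, with 23 of 24 positive, 11 at an unadjusted p under 0.05 and Ly6a past both thresholds. Their median was 0.46. Isg15, a ubiquitin-like antiviral protein, was at 1.42, 2.08 and 6.22 CPM in CON libraries and 3.77, 7.05 and 14.6 CPM in SUS libraries (1.5, SE 0.39, unadjusted p = 0.000905). Rsad2 (viperin) was at 10.2, 14.3 and 23.4 CPM and 18.9, 27.0 and 89.1 CPM (1.40, SE 0.36, unadjusted p = 0.00198). CON library 2 was the highest CON library for both, and 4 and 5 SUS libraries lay above it. Irf7, the factor that amplifies interferon production, differed by 0.63 (SE 0.16), the nucleic acid sensor Zbp1 by 0.56 (SE 0.13) and the antiviral GTPase Mx1 by 0.85 (SE 0.32). Reads of Irf7 (mean count 2695) could be shared with Phrf1, which overlaps it on the opposite strand and had a mean count of 5665. With the red cell covariate, 5 members were higher at an unadjusted p under 0.05, and the difference of Rsad2 was 0.39 (unadjusted p = 0.137).

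The promoters of these genes were searched on both strands for a STAT-type motif (TTCNNNGAA), an E2F-type motif (TTTNNCGC) and a repeated interferon-type element (GAAANNGAA) in the 250 bases before each RefSeq start site (GRCm38.p6), with overlapping matches counted separately. Of the 6 genes past the adjusted p, 4 had a window in the table used, and Socs3 alone of these held a match. The 3 stretches shown are those of Socs3, the gene with the STAT-type match, and of Isg15 and Rsad2 from the interferon list, with matches in capitals, 5′ to 3′ on the strand of the gene.
Socs3, chr11:117969487-117969545, minus strand: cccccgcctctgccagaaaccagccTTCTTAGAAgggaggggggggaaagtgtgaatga
Isg15, chr4:156200851-156200921, minus strand: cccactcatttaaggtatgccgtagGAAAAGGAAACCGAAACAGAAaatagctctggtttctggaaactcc
Rsad2, chr12:26456538-26456596, minus strand: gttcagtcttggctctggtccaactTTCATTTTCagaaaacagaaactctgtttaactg

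The Socs3 match starts 154 bases before the RefSeq start site, but the GENCODE gene given above begins further upstream, so the stretch lies inside that gene model. Of the 10208 tested genes with a window, 7.25% had such a match. The Isg15 window held 3 overlapping matches from 78 to 58 bases before its start, and that of Rsad2 a single match on the opposite strand. The interferon-type element was in 9 of 17 interferon response genes with a window (52.9%), against 7.41% of tested genes. The E2F-type motif was in 3 of 18 proliferation genes (16.7%, against 8.19%) and in 4 of 23 cytokine receptor and JAK-STAT genes (17.4%). The STAT-type motif was in 4 of those 23 (17.4%, against 7.25%), in 3 of 9 regulatory T cell genes (33.3%) and in 4 of 17 interferon response genes (23.5%). These shares rest on few genes. A match describes the letters only, and the shares describe the chosen lists, not the difference between SUS and CON mice.

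Of 27 tested cytokine receptor and JAK-STAT genes, 4 were higher and 1 lower at an unadjusted p under 0.05, and the list's median was 0.13. The 4 were Socs3, Jak3, Stat3 and Cish. Stat3, which induces Socs3, was at 157 to 206 CPM in CON and 184 to 247 CPM in SUS libraries (0.24, SE 0.10, unadjusted p = 0.0188). Stat5a overlaps Stat3 (mean count 7740) on the opposite strand and had a mean count of 2658, so reads could be shared. Cish, a feedback inhibitor induced by STAT5, differed by 0.67 (SE 0.31), and Socs1, an inhibitor of interferon signalling, by 0.45 (SE 0.23, unadjusted p = 0.0643). Jak1 was lower, at 937 to 1020 CPM in CON and 843 to 944 CPM in SUS libraries (-0.19, SE 0.07, unadjusted p = 0.0211). Socs2, another tested member, differed by 0.76 (SE 0.69, unadjusted p = 0.286). Of these SOCS family genes Socs3 alone passed the test, and whether their differences were unequal was not tested.

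Stress hormone signalling was covered by 2 lists. Of 18 glucocorticoid receptor and target genes, 2 were higher at an unadjusted p under 0.05, against 3.01% of all genes tested. The list's median was -0.02. Fkbp5, a co-chaperone of the receptor that glucocorticoids induce, was at 26.5, 32.5 and 38.7 CPM in CON libraries and 39.5, 47.3 and 67.7 CPM in SUS libraries (0.60, SE 0.14, adjusted p = 0.158). Zfp36 (tristetraprolin), which degrades cytokine mRNA, was at 64.8, 70.1 and 80.5 CPM and 82.9, 100.2 and 153 CPM (0.62, SE 0.14, adjusted p = 0.149). The groups were apart for both genes, and the other 16 members did not reach an unadjusted p under 0.05 in the main fit. With the red cell covariate, 4 members were higher at an unadjusted p under 0.05, against 2.11% of all genes in that fit. Of 18 adrenergic and cyclic AMP genes, 13 had a negative and 5 a positive difference, with a median of -0.10. The summed level of the list was 1494 to 1634 CPM in CON and 1270 to 1482 CPM in SUS libraries, so that every SUS library lay below every CON library. At an unadjusted p under 0.05, 2 members were lower, against 1.84% of all genes tested, and none was higher. Both were phosphodiesterases that degrade cyclic AMP. Pde3b was at 196, 223 and 251 CPM in CON and 110, 172 and 194 CPM in SUS libraries (-0.42, SE 0.11, adjusted p = 0.334), with no overlap, and Pde4b at 119 to 146 and 97.7 to 135 CPM (-0.22, SE 0.10).

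Of 26 immediate early genes, 4 were higher and 1 lower at an unadjusted p under 0.05, with a median of 0.21. Apart from Zfp36 these included the AP-1 subunits Junb (0.51, SE 0.16) and Fos (0.91, SE 0.36, 2.19 to 9.22 CPM in CON and 3.87 to 17.6 CPM in SUS libraries). Prdx2 overlaps Junb (mean count 3287) on the opposite strand and had a mean count of 1233, so reads could be shared. Of 16 NF-kappaB genes 3 were higher, among them the inhibitor-like nuclear cofactors Bcl3 (4.89, 12.0 and 19.9 CPM in CON and 18.0, 27.7 and 46.2 CPM in SUS libraries, 1.23, SE 0.31, unadjusted p = 0.0011) and Nfkbiz (0.52, SE 0.13, unadjusted p = 0.000586). Of 18 clock genes, 2 were higher, Rora among them, and Nr1d2, a repressor of the clock, was lower (-0.41, SE 0.14). Of 19 adhesion and migration genes, 1 was higher and 2 were lower, and the integrin subunit Itga6 was at 187 to 223 CPM in CON and 138 to 184 CPM in SUS libraries (-0.26, SE 0.09, unadjusted p = 0.00844), with no overlap. Of 18 apoptosis and survival genes, the survival gene Bcl2l1, which red cell precursors also express, was higher (0.53, SE 0.22), and its difference with the red cell covariate was 0.09. None of 16 glycolysis and 16 heat shock genes reached an unadjusted p under 0.05, although 15 of the 16 glycolysis genes had a positive difference (median 0.11), and their summed level was 1509 to 1848 CPM in CON and 1463 to 2164 CPM in SUS libraries. The lowest p in these lists were those of Pgk1 (0.25, unadjusted p = 0.0547) and Hsph1 (-0.64, unadjusted p = 0.0647).

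The following markers of other cells had the smallest p of their lists, and other members of these lists had higher levels, such as Lyz2 of monocytes (4.53 to 153 CPM in CON and 3.1 to 331 CPM in SUS libraries) and Ighm of B cells (212 to 267 and 197 to 309 CPM). The B cell receptor subunit Cd79a was at 4.12 to 10.1 CPM in CON and 0.92 to 6.87 CPM in SUS libraries (unadjusted p = 0.141), Treml4 of monocytes at 0 to 2.11 and 0.08 to 5.18 CPM, Ngp of neutrophils at 0 to 0.57 and 0 to 3.34 CPM, Klri2 of NK cells at 0 to 1.37 and 0.22 to 5.32 CPM, and Clec1b of platelets at 0.04 to 1.89 and 0.55 to 4.76 CPM. H2-Aa, an MHC class II chain of antigen presenting cells, was at 0.67 to 13.4 and 0.87 to 3.59 CPM (-1.49, SE 0.64, unadjusted p = 0.0305). The red cell anion exchanger Slc4a1 was at 1.06 to 9.23 CPM in CON and 6.71 to 69.3 CPM in SUS libraries (2.36, SE 0.73, unadjusted p = 0.00843).

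A second count test, DESeq2, which the study used, called more genes on the same 12 libraries. It called 56 genes (0.244% of 22906 with an adjusted p), 48 higher and 8 lower, including all 5 edgeR calls. Of the 56, 44 were also tested by edgeR, and all 44 had the same sign and an unadjusted p under 0.05 there. The other 12 had not passed edgeR's filter on low counts, and 16 of the 56 had a mean under 50 counts. DESeq2's adjusted p was 3.81e-13 for Socs3, 8.88e-09 for Neb and 1.1e-06 for Ly6a. Its list added, among others, Mki67, Top2a, Tpx2, Rsad2, Bcl3 and the erythroid ankyrin Ank1, and among the 8 lower ones Pik3c2b.

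Stressed mice that were not socially avoidant give a comparison group. In a fit of 17 T cell libraries without the RES library with B cell markers, SUS vs. CON gave 5 called genes, RES vs. CON gave none (775 genes at an unadjusted p under 0.05) and SUS vs. RES none (451 genes). The RES vs. CON log2 differences were 0.78 for Socs3, 0.97 for Il2ra, 0.89 for Ly6a, 1.43 for Rrm2, 1.43 for Neb and 0.88 for E2f2. They share the CON libraries with the SUS values and are given side by side only. Tested directly, SUS minus RES was 0.95 for Socs3 (SE 0.23, adjusted p = 1), with 92.5 to 161 CPM in RES libraries, and 0.01 for E2f2 (SE 0.17, adjusted p = 1). Between SUS and RES mice no gene thus passed both thresholds.

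The same contrast in the other sorted cells was compared by testing the difference of the changes over the 46 SUS and CON libraries of the 4 cell types. The change differed between T cells and Ly6C high monocytes for 728 genes (3.15%), larger in T cells for 221 and smaller for 507. It differed between T cells and B cells for 18 genes (0.0778%), and between T cells and Ly6C low monocytes for 0 genes (1547 at an unadjusted p under 0.05). When only the 2 cell types compared were fitted, the numbers were 85, 3 and 1, in the same order. Of the 6 genes, E2f2 differed between T cells and B cells by 0.96 (SE 0.21, adjusted p = 0.0448), with a change of 0.89 in T cells and -0.07 in B cells, but not when these cell types were fitted alone (adjusted p = 0.137). For Socs3 the SUS minus CON difference was 1.73 in T cells, 1.59 in B cells, 2.95 in Ly6C high and 0.96 in Ly6C low monocytes, and none of the 3 tests of a difference passed (adjusted p = 1.0 against B cells, and 0.117 and 0.927 against the monocytes in the same order). For Il2ra, Ly6a, Rrm2 and Neb no test of a difference passed. These tests do not show that a change was shared, since several levels outside T cells were low. In Ly6C high monocytes, CON and SUS means were 0.005 and 0.003 CPM for Il2ra (SE of the difference 3.21). Those of Neb were 0.58 and 0.84 CPM. In B cells Ly6a was at 56.3 and 83.5 CPM, and its difference there was 0.63 (SE 0.74).

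Among genes with a mean of 1 CPM or more in T cells, the 3 with the smallest p for a difference from Ly6C high monocytes were ones without a detectable difference in T cells. Il4ra, the interleukin-4 receptor chain, was at 267 to 338 CPM in CON and 273 to 382 CPM in SUS T cells (log2 difference 0.06, SE 0.10), Slc28a2, a nucleoside transporter, differed by -0.10 (SE 0.09), and Flot2, a membrane raft protein, by 0.02 (SE 0.14). In Ly6C high monocytes the differences were 1.81, 1.57 and 1.74. Against Ly6C low monocytes, the genes with the smallest p among those with a mean of 1 CPM or more in T cells were Pecam1, Abcb10 and Abcd2 (adjusted p = 0.174, 0.174 and 0.182). Abcd2 was at 0.03 to 0.26 CPM in CON and 0.09 to 5.01 CPM in SUS T cells, while Ly6C low monocytes had mean levels of 63.9 CPM in CON and 69.5 CPM in SUS libraries.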

How the data were processed

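The authors sequenced total RNA of the sorted cells with paired-end reads, aligned them with HISAT2 to the mm10 genome and assigned them to Ensembl genes with htseq-count. They deposited raw counts per gene, without normalization, in a table of 52636 genes. The strand setting and the handling of duplicates and of reads with several positions are not given in the sources used here, so values of overlapping or near-identical genes can be split or shared. Symbols and positions are those of GENCODE M21 (GRCm38), which held 52489 of the identifiers.

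Counts of the 12 T cell libraries were filtered with filterByExpr on the 2 groups, scaled by TMM and fitted with edgeR 4.0.16 under R 4.3.3, using its robust quasi-likelihood F test and Benjamini-Hochberg adjustment over all genes tested. Called genes had an adjusted p under 0.05 together with a log2 fold change beyond 1 in size, the thresholds of the study. The study applied them with DESeq2, in another version than the one used here. The standard error is the size of the log2 fold change over the square root of F. CPM values use the TMM library sizes, and single-gene levels on the log2 scale were also checked with pseudocounts of 0.1, 0.5 and 1 CPM. Differences between cell types were tested as interactions over 46 libraries. Library measures were compared by exact two-sided permutation, for which 6 against 6 libraries allow a smallest p of 0.00216.

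The members and the 27 lists were chosen with earlier results of these data known, so lists are described by counts and medians and not tested. Named are the genes past the thresholds, the 10 higher and 10 lower protein-coding genes with the smallest p and a mean of at least 50 counts, the member of each list with the smallest p, any called member of a list, 3 genes of each interaction test at 1 CPM or more in T cells, and Cd3e, Cd3g and Lck. Other named genes, such as Foxp3, Mki67, Isg15 and Fkbp5, were chosen after their values were seen. Some genes that these rules name are not reported here. Alternatives were DESeq2 1.42.0 and its size factors, other filters on low counts, other sets of libraries or genes, thinning to the smallest total, a red cell covariate, and each library left out in turn, 24 refits in all. The fits were tested on simulated data. No 2 libraries of a group were identical, and the closest of 30 pairs differed by a chi-square of 26.1 per degree of freedom. Molecular identifiers were not used, so reads may be copies of the same molecule. No paired analysis was possible because the labels number no mice, and replicate numbers were given in accession order.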

Additional observations from a re-analysis of the deposited data

Results flagged for a closer look

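A total of 186 sets of 6 libraries (the named genes and 4 library measures, in each group) were examined for a single library far from the rest. In 19 of them the highest or lowest library stood apart by Dixon's criterion, which chance alone meets in about 1 of 20 sets.

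CON library 6 had the lowest total of its group, 27257572 counts, and stood apart for 6 genes. It was highest among CON libraries for Gzmb (26.9 CPM), Havcr2 (3.25 CPM), Top2a (23.7 CPM), Klrg1 (11.3 CPM) and Afdn (13.4 CPM), and lowest for Slc28a2 (108 CPM). CON library 1 was highest for Socs3 (86.9 CPM), St8sia1 (153 CPM) and Itga6 (223 CPM). CON library 2 had the largest share of haemoglobin counts in its group, 0.325%, and the highest levels of Hba-a1 (1334 CPM), Isg15 (6.22 CPM) and Rsad2 (23.4 CPM). CON library 5 was lowest for Jak1 (937 CPM).

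Among SUS libraries, library 6 was highest for Cd163l1 (99.0 CPM) and Tcrg-C1 (27.1 CPM), both genes of gamma-delta T cells, library 4 for Fkbp5 (67.7 CPM) and library 2 for the neutrophil granule gene Ngp (3.34 CPM). SUS library 2 also lay apart from the other 11 on the first principal component, which held 15.6% of the variance, and SUS library 3 on the second, which held 12%.

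The SUS minus CON change differed between T cells and Ly6C high monocytes for 728 genes and between T cells and B cells for 18 genes. T cells minus Ly6C high monocytes, the difference of the log2 changes was -1.76 for Il4ra, -1.68 for Slc28a2 and -1.72 for Flot2. T cells minus B cells, it was 0.96 for E2f2, -6.51 for Gprin3, -4.74 for Gpc1 and -4.16 for Afdn. In the B cells of CON mice the mean levels of Gprin3, Gpc1 and Afdn were 0.005, 0.01 and 0.06 CPM, so that the last 3 values rest on levels near 0.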

How the results depend on the processing

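The count of 5 called genes, all higher, was 56 with DESeq2 (48 higher, 8 lower), 14 without a low-count filter (13 higher, 1 lower), and 0 with all 18 T cell libraries in 3 groups, with the red cell covariate, or without SUS libraries 1 and 2 and CON libraries 1 and 2, where 513, 577 and 715 genes had an unadjusted p under 0.05. The last 2 were added after the data were seen. Left-out single libraries gave 0 to 11. The count was 5 to 7 with DESeq2's size factors, at least 10 counts in every library, the robust option off, 17 libraries, without mitochondrial, haemoglobin and the Gm23935 and Gm26917 genes, and with thinning. The adjusted p alone gave 6. The adjusted p stayed under 0.05 in 20 of 24 refits for Ly6a, 15 for Socs3 and Rrm2, 14 for Il2ra and 13 for Neb and E2f2.

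The count of genes that differed from Ly6C high monocytes was 85 when only these cells were fitted, 482 with DESeq2's size factors and 354 with a difference above 1. Fits of pairs gave 1 gene against Ly6C low monocytes and 3 against B cells.

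Genes near 0 changed sign in some fits. With single libraries left out, the log2 difference ran from -0.0988 to 0.0553 for Lck, -0.0983 to 0.0137 for Cd3e, -0.00396 to 0.0994 for Il4ra and -0.0496 to 0.102 for Flot2. Il4ra was at -0.0505 with the red cell covariate, and Il4ra and Flot2 at -0.00451 and -0.0452 without the 4 libraries with most monocyte RNA. No other named gene reversed in any refit. The cause was not tested. Depth limits genes under about 1 CPM. No replicate block was fitted.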
